A study of Mus musculus with 48 samples.

Results

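The genes described here mark B cells and their antibody-secreting descendants, plasma cells, in bulk RNA sequencing of mouse liver, of epididymal white fat (eWAT) and of brown fat (BAT). They were chosen by name: Ighm, Igha, Ighg2b, Igkc, Jchain, Mzb1, Cd79a, Cd79b and Ms4a1, 9 of the 56748 gene identifiers in the count files, and all 9 were found. The study set hepAGT-/- mice, a deletion of angiotensinogen (Agt) in hepatocytes, beside hepAGT+/+ littermates, called controls here. All mice were male, spent 12 weeks on a Western diet (0.2% cholesterol, 21% milk fat), and were housed either at 20 to 22 °C, room temperature (RT), or at 30 °C, which is thermoneutral (TN) for mice. Each of the 12 groups of tissue, genotype and housing had 4 libraries, 48 in all. The labels give neither the age, the strain, the Cre driver nor the deleted exons.

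Immunoglobulins are built from paired heavy and light chains, each with a variable part that binds antigen and a constant part. A B cell carries its immunoglobulin on the surface as the antigen receptor, held by the signalling chains CD79A and CD79B, while a plasma cell loses most surface receptor and secretes antibody in bulk. The constant part of the heavy chain sets the class: Ighm encodes IgM, Igha IgA and Ighg2b IgG2b. Igkc encodes the constant part of the kappa light chain, which pairs with any of these heavy chains. Jchain links IgM and IgA into polymers, Mzb1 encodes an endoplasmic reticulum chaperone of B and plasma cells, and Ms4a1 encodes CD20, which is lost as B cells become plasma cells. In visceral fat, B cells sit both in the tissue and in small lymphoid clusters, and lymph nodes are embedded in several fat depots.

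Ighm, Igha and Ighg2b lie in the heavy chain locus on the minus strand of chromosome 12 (GRCm38, GENCODE M21), from 113418558 to 113422730, 113254830 to 113260236 and 113302965 to 113307933. Igkc lies on chromosome 6 from 70726435 to 70726966, inside a long noncoding RNA gene with which it shares 0 exon bases. Jchain lies on chromosome 5 from 88519809 to 88527891, Cd79a on chromosome 7 from 24897381 to 24902197, Cd79b on chromosome 11 from 106311341 to 106314762 and Ms4a1 on chromosome 19 from 11249675 to 11266241. Of the 1215 exon bases of Mzb1, 57.2% are shared with a neighbouring gene on the same strand, so its counts are uncertain.

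Library totals were 23.7 to 36.5 megacounts in liver, 25.3 to 39.4 in BAT and 28.7 to 43.7 in eWAT. Levels are given as CPM, the counts in each megacount of the library total. In liver, Agt was at 355 ± 78.2 CPM (SD, n = 4) in controls and 167 ± 29.1 CPM in hepAGT-/- mice at RT, and at 401 ± 62.7 and 175 ± 33.1 CPM at TN, so Agt reads were lower in the libraries labelled hepAGT-/- but not absent. Summed markers of hepatocytes were at 46307 to 82153 CPM in liver, 7.66 to 2223 CPM in BAT and 26.9 to 4011 CPM in eWAT. Summed adipocyte markers were at 4396 to 10872 CPM in BAT, 7826 to 11709 CPM in eWAT and 11 to 53.2 CPM in liver. Skeletal muscle markers reached 5923 CPM in BAT, and epididymis markers reached 880 CPM in 1 control eWAT library at RT. In bulk RNA, fewer cells of a type and less RNA per cell cannot be told apart.

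Of the 9 genes, 8 passed the filter on low counts in each tissue and were tested. Mzb1 passed in none: its highest count in any library was 14, and it was at 0 in 9 liver, 14 BAT and 7 eWAT libraries of 16 each. Per kilobase of exon, Igkc had the highest median level of the 9 genes in liver, at 12.4 CPM per kb, and in BAT, at 10.8. Ighm followed there with 4.42 and 7.16 CPM per kb. In eWAT this order was turned round, with Ighm at a median of 228 CPM per kb and Igkc at 73.7. The B cell surface genes were far lower in every tissue: per kilobase, the median of Cd79b was 0.961 in liver, 0.398 in BAT and 1.26 in eWAT, that of Cd79a 0.366, 0.224 and 0.44, and that of Ms4a1 0.112, 0.0514 and 0.0935.

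**Figure D1:**
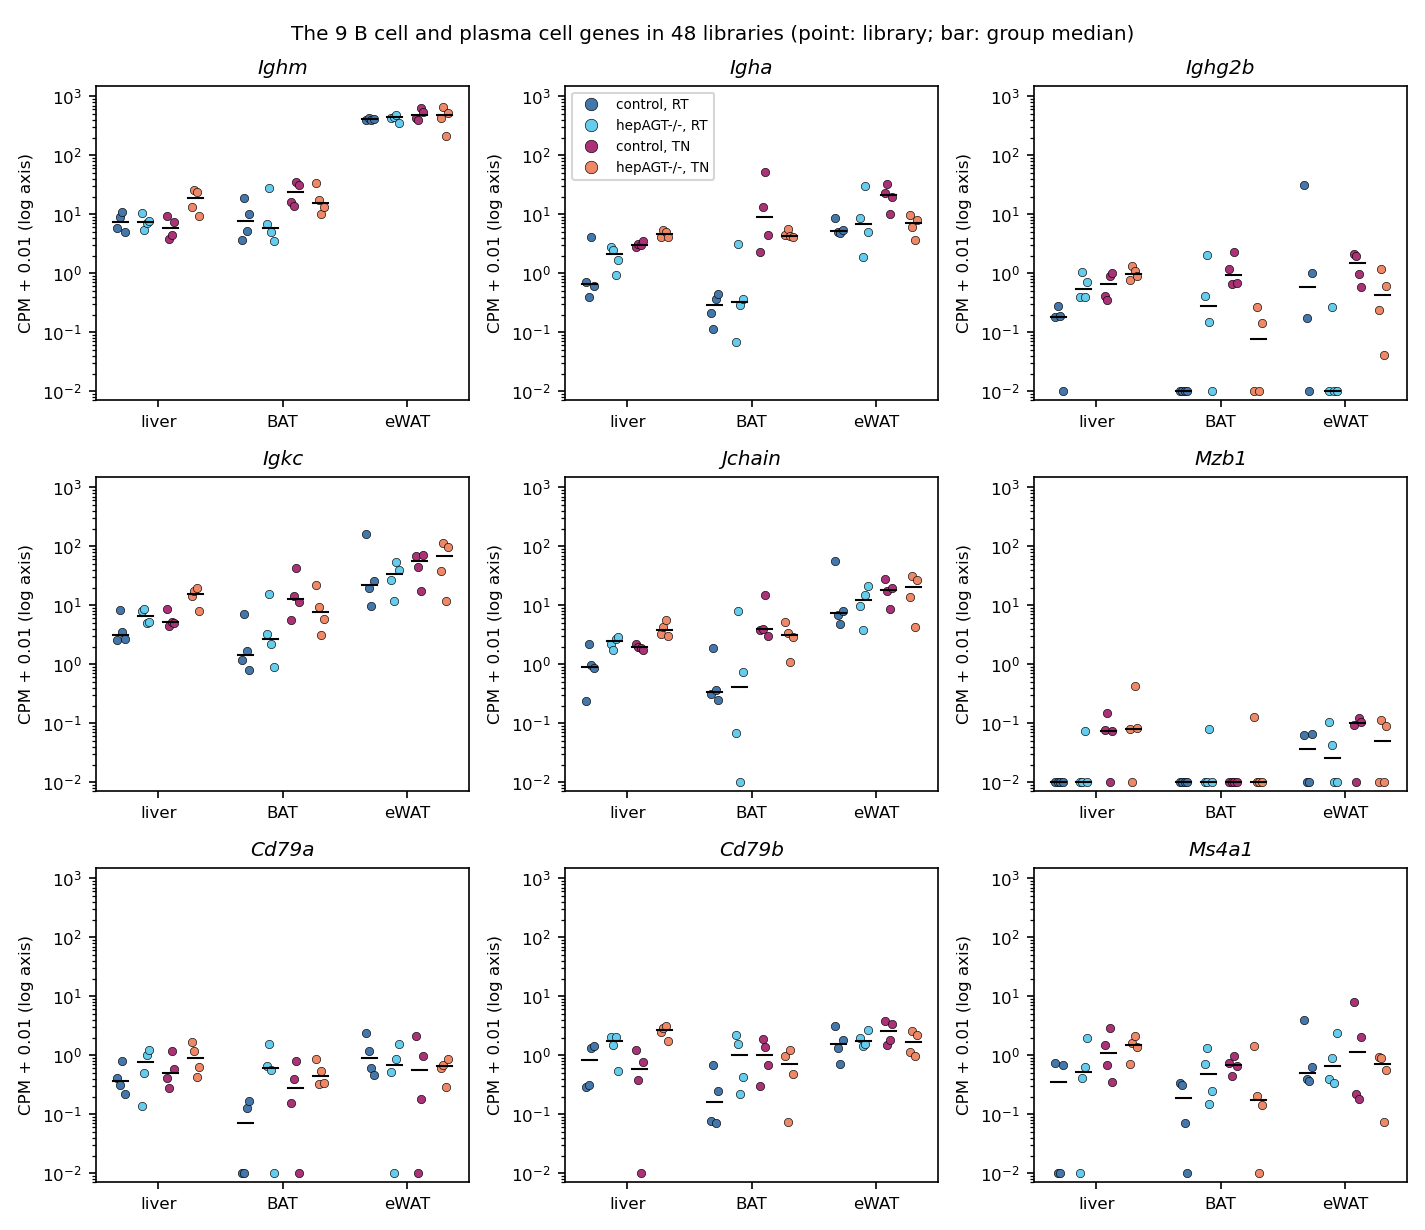
Level of each of the 9 genes in every library, as CPM + 0.01 on a log axis, by tissue and group, with bars at the group medians of 4 libraries. Ighm stands at 209 to 653 CPM in all 16 eWAT libraries and at no more than 35.3 CPM elsewhere, while Mzb1 stays near 0.

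Ighm was the gene that separated the tissues most. In eWAT it ranged from 209 to 653 CPM with a median of 430, in BAT from 3.53 to 35.3 with a median of 13.5, and in liver from 3.84 to 25.6 with a median of 8.33. The lowest eWAT library was thus above the highest library of the other tissues. By edgeR's quasi-likelihood test over all 48 libraries, with Benjamini-Hochberg adjustment over 21910 genes, the log2 difference was 5.09 ± 0.30 (SE; adjusted p = 3.26e-18) against liver and 4.50 ± 0.29 (adjusted p = 1.36e-16) against BAT. Of the 8 genes tested, 4 were higher in eWAT than in liver and none was lower, at an adjusted p under 0.05, where 73.8% of all genes were called in either direction. Against BAT, 6 of 8 were higher in eWAT, beside 60.3% of all genes. With such shares of all genes called, these counts alone do not set the 8 genes apart.

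The genes of secreted antibody followed Ighm in eWAT, at smaller differences. Igkc had a median of 39.2 CPM in eWAT (9.91 to 159), 5.75 in BAT (0.79 to 43.1) and 6.58 in liver (2.57 to 19.4). Its log2 difference was 2.26 ± 0.41 against liver (adjusted p = 8.22e-06) and 2.34 ± 0.42 against BAT (adjusted p = 7.79e-06, edgeR). Jchain had medians of 14.4, 2.37 and 2.16 CPM in eWAT, BAT and liver, and its log2 difference was 2.48 ± 0.47 against liver (adjusted p = 1.14e-05) and 2.43 ± 0.46 against BAT (adjusted p = 2.33e-05, edgeR). Igha had medians of 8.25, 2.73 and 2.9 CPM, with log2 differences of 1.42 ± 0.38 (adjusted p = 0.000991) and 1.80 ± 0.39 (adjusted p = 0.000143). The ranges of these 3 genes overlapped between all tissues, unlike those of Ighm.

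Ighg2b was low in most libraries and rested on few of them. Its median was 0.415 CPM in eWAT, 0.137 in BAT and 0.551 in liver, and it was at 0 in 4, 7 and 1 libraries of 16. One control eWAT library at RT, replicate 12, had 31.9 CPM, while the next highest eWAT library had 2.1. The gene was called higher in eWAT than in BAT (log2 2.30 ± 0.86, adjusted p = 0.02) and not against liver (0.14 ± 0.77, adjusted p = 0.901, edgeR). Without replicate 12 the difference from liver turned to -0.94 and that from BAT was 1.22 (adjusted p = 0.127). Without hepAGT-/- eWAT replicate 10 at RT they were -0.84 and 1.33 (adjusted p = 1), and without hepAGT-/- eWAT replicate 4 at TN the difference from liver was -0.09.

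The B cell receptor genes did not share the eWAT excess of Ighm. Cd79a had medians of 0.64 CPM in eWAT, 0.327 in BAT and 0.534 in liver, and its log2 difference from liver was -0.23 ± 0.54 (adjusted p = 0.718, edgeR), and 0.29 when library totals were used with no scaling factor. Cd79b was at 1.8, 0.569 and 1.37 CPM, and was called higher in eWAT than in BAT (log2 1.13 ± 0.40, adjusted p = 0.0142) but not than in liver (0.20 ± 0.39, adjusted p = 0.674, edgeR). Ms4a1 was at 0.579, 0.318 and 0.694 CPM and was not called between any pair of tissues, although it was called against BAT when hepAGT-/- BAT replicate 2 at TN was left out (adjusted p = 0.0244 for eWAT and 0.0207 for liver). BAT was lower than liver for Ighg2b (log2 -2.17 ± 0.84, adjusted p = 0.0209), Cd79a (-1.25 ± 0.56, adjusted p = 0.0454) and Cd79b (-0.93 ± 0.40, adjusted p = 0.0391), and higher for Ighm (0.60 ± 0.25, adjusted p = 0.0347, edgeR), 4 of 8 genes beside 68.6% of all genes. The calls of Cd79a, Cd79b and Ighm lay near the threshold: without control BAT replicate 24 at TN all 3 were lost, with adjusted p of 0.0636, 0.0548 and 0.0629, and the closing section gives the other libraries. The calls of Cd79a and Cd79b were also lost with library totals (adjusted p = 0.0751 and 0.0772) and with no filter (0.0689 and 0.0625). When same-numbered libraries were fitted as a block across tissues, Ighg2b alone kept its call.

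Other genes of the B lineage differed in both directions between eWAT and liver. Among 16 further B cell identity genes, 4 were higher and 5 lower in eWAT than in liver, with a median log2 difference of -0.55 beside 0.05 over all genes. The shares of all genes called in either direction were 73.8% against liver and 60.3% against BAT. Among the lower was Cr2, the complement receptor CD21, with a log2 difference of -2.13 ± 0.70 (adjusted p = 0.00627, edgeR). Among the higher was Pou2af1, the coactivator of immunoglobulin transcription, with a log2 difference of 1.55 ± 0.69 (adjusted p = 0.0396, edgeR), a call lost without any of 15 single libraries (adjusted p up to 0.0793, without hepAGT-/- eWAT replicate 4 at TN). Against BAT, 6 of the 16 were higher in eWAT and none was lower, with Pou2af1 (log2 2.39 ± 0.72, adjusted p = 0.00394) and Cd180, a toll-like receptor homologue also found on macrophages (2.19 ± 0.25, adjusted p = 3.12e-10, edgeR), among them. Summed macrophage markers were at 280 to 1069 CPM in eWAT and 22.3 to 194 CPM in BAT, and their part in these differences was not tested.

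Of the 8 other immunoglobulin constant genes, 7 could be tested over the tissues. All 7 were higher in eWAT than in BAT, where 60.3% of all genes were called in either direction. Against liver 5 were higher in eWAT and none lower, where 73.8% of all genes were called (edgeR). Ighd, which encodes IgD and is transcribed together with Ighm in naive B cells, was at 3.3 to 12.8 CPM in eWAT and 0.18 to 2.68 CPM in BAT, a log2 difference of 2.69 ± 0.26 (adjusted p = 4.56e-12). The 12 plasma cell genes were mixed, with 3 higher and 8 lower in eWAT than in liver; several of them, such as Xbp1, Sdc1 and Txndc5, are also strongly expressed by hepatocytes. Tnfrsf17, the plasma cell survival receptor BCMA, was at 0.166 to 1.1 CPM in every eWAT library and at 0 in 11 of 16 liver libraries (log2 4.26 ± 0.78, adjusted p = 6.79e-06, edgeR). Tnfsf13b, the B cell survival factor BAFF, and Tnfrsf13b, its receptor TACI, were higher in eWAT than in BAT by 2.38 ± 0.34 (adjusted p = 7.34e-08) and 2.20 ± 0.41 (adjusted p = 1.05e-05) on the log2 scale.

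Variable segments offer a second view of the same chains, because an immunoglobulin mRNA joins a variable segment to a constant part. In liver, the 185 heavy variable segments in the files, pseudogenes included, together had a median of 7.67 counts per 100 counts of the heavy constant genes (2.47 to 23.9), and in BAT 3.77 (0 to 11.8). In eWAT the median was 1.64 (0.176 to 8.96). Ighm made up most of the heavy constant counts in every eWAT library and also in most liver and BAT libraries. As CPM, heavy variable reads were highest in eWAT, with a median of 6.43, beside 1.18 in liver and 0.618 in BAT. The kappa share was not lowest in eWAT. The 160 kappa variable segments had a median of 41.7 counts per 100 Igkc counts in liver, 50.1 in BAT and 52.4 in eWAT. Ighm per kilobase was 0.713 to 11.4 times Igkc per kilobase in eWAT (median 2.83), against medians of 0.365 in liver and 0.696 in BAT. These ratios are descriptions over libraries, since segments of similar sequence share reads and the handling of such reads is not given in the sources used here.

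The library with most kappa reads was the one with most heavy variable reads. Control eWAT replicate 12 at RT had 8.96 heavy variable counts per 100 heavy constant counts, the highest share in eWAT, and the lowest ratio of Ighm to Igkc in that tissue, 0.713. At the other end stood hepAGT-/- eWAT replicate 5 at TN, with 209 CPM of Ighm, 12 heavy variable counts in all and a share of 0.176 per 100.

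**Figure D2:**
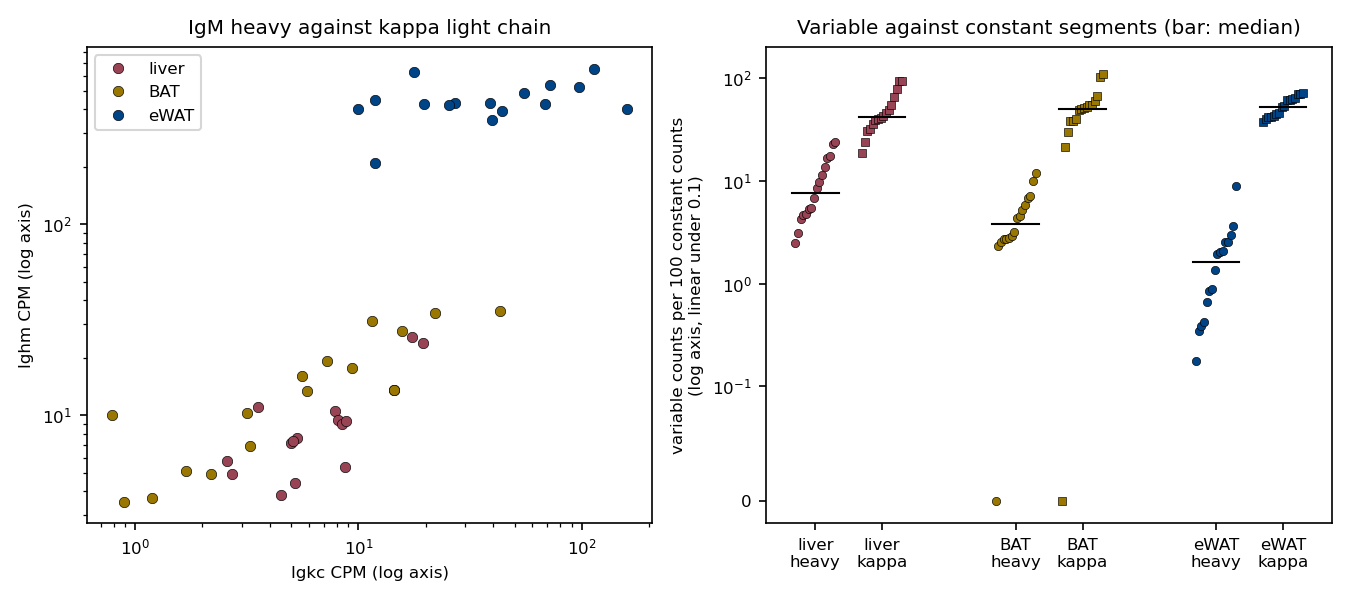
Left, Ighm against Igkc in each library, both in CPM on log axes, coloured by tissue; right, heavy variable counts per 100 heavy constant counts and kappa variable counts per 100 Igkc counts, with bars at the tissue medians of 16 libraries. The eWAT points lie in a band of high Ighm at any Igkc, and their heavy variable share has the lowest median, 1.64, while the kappa share has a median of 52.4.

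Across the 16 libraries of a tissue, Igkc and Jchain moved together most closely of all pairs of tested members in each tissue. Pearson's r of their log2 levels was 0.97 in eWAT, 0.87 in BAT and 0.84 in liver. Ighm followed Igkc in BAT (r = 0.84) and liver (r = 0.76) and less so in eWAT (r = 0.35), where its r with Cd79a was 0.00 and with Jchain 0.30. Cd79b and Ms4a1 had an r of 0.79 in eWAT, 0.56 in BAT and -0.07 in liver. These values describe 16 libraries from 4 groups, which share housing and genotype, and carry no test.

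The heavy and the kappa segment with most counts over the eWAT libraries were then looked at in every library, a choice made after the counts were seen. Ighv11-2 (chromosome 12, 114048241 to 114048812) and Igkv14-126 (chromosome 6, 67896172 to 67896642) are known as the heavy and light chain pair of natural IgM against phosphatidylcholine, carried by many B-1a cells, a self-renewing B cell subset of body cavities. Among segments annotated as functional, Ighv11-2 made up 897 of 5579 heavy variable counts in eWAT, 16.1%, and Igkv14-126 made up 2133 of 15222 kappa variable counts, 14%. In BAT, Ighv11-2 had 0 of 560 heavy variable counts, which allows a share of up to 0.536% by counting error alone, and Igkv14-126 had 1 of 2139. In liver they had 2 of 670 and 8 of 1615 counts. Since the segments were chosen for their eWAT counts, this difference between tissues is a description, and the leading segments of BAT and liver were not looked at in this way.

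Within eWAT the 2 segments rose and fell together. Both had at least 10 counts in 8 of 16 libraries, both had a count in 11, and 2 libraries had neither. Pearson's r of log2(count + 1) was 0.91 over the 16. These counts were not divided by the totals of all variable segments, which differed too. Heavy and kappa totals were 10 and 229 in hepAGT-/- replicate 5 at TN, and 1501 and 3509 in control replicate 12 at RT. The part of these totals in r was not tested. Control replicate 12 at RT had 398 Ighv11-2 and 994 Igkv14-126 counts, hepAGT-/- replicate 4 at TN had 241 and 518, hepAGT-/- replicate 3 at TN had 92 and 196, and hepAGT-/- replicate 19 at RT had 43 and 127. In these 4 libraries Ighv11-2 was the most abundant heavy variable segment, at 26.5%, 30.8%, 22.3% and 20.1% of heavy variable counts. They came from 3 of the 4 eWAT groups, and each of the 4 groups also held a library with under 10 counts of Ighv11-2.

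**Figure D3:**
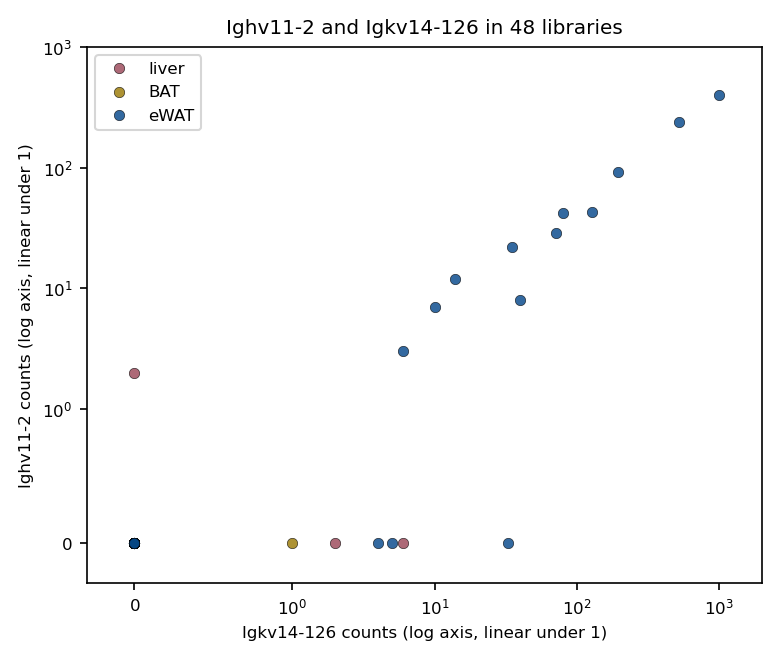
Counts of Ighv11-2 against Igkv14-126 in each of the 48 libraries, on axes that are logarithmic above 1 and linear below, coloured by tissue. The eWAT libraries form a rising line up to 398 and 994 counts, while no BAT or liver library has counts of both segments.

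In BAT of controls, 2 antibody genes, Igha and Ighg2b, were higher at thermoneutral than at room temperature housing. Igha was at 0.199, 0.102, 0.361 and 0.435 CPM in the 4 control BAT libraries at RT and at 2.31, 13.4, 53.2 and 4.51 CPM at TN. The groups did not overlap, and replicate 7 was highest by far. The log2 change was 5.39 ± 1.21 (adjusted p = 0.00438, edgeR, over 18032 genes). Ighg2b had no count in any of the 4 RT libraries and 1.17, 0.642, 2.32 and 0.672 CPM at TN. It passed the filter on low counts in BAT only through these TN libraries, so its call rests on the group that admitted it. Against a floor of 3 counts per library, which corresponds to 0.096 CPM, the TN mean of 1.2 ± 0.787 CPM (SD, n = 4) was at least 12.5-fold higher (adjusted p = 0.00692, edgeR). These 2 of 8 genes were called, both higher, where 32.5% of all genes were called in either direction, so the count itself does not set the members apart. The median log2 change of the 8 was 1.82, also with Ighg2b at its bound, beside 0.11 over all genes.

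The other antibody genes were higher at TN in most control BAT libraries without passing the test. Igkc was at 1.19, 7.21, 1.68 and 0.79 CPM at RT and at 5.6, 14.4, 43.1 and 11.5 CPM at TN, with a log2 change of 2.08 ± 1.01 (adjusted p = 0.137, edgeR). RT replicate 15 lay above the lowest TN library, and without it Igkc was called (log2 3.31, adjusted p = 0.0431). Jchain was at 0.237 to 1.88 CPM at RT and 3.01 to 14.9 CPM at TN, with no overlap (log2 2.52 ± 1.34, adjusted p = 0.169, edgeR). In a fit of only these 8 libraries it was called (2.55, adjusted p = 0.0259, edgeR). Ighm was at 3.71, 19.2, 5.14 and 10.1 CPM at RT and 16.1, 13.6, 35.3 and 31.2 CPM at TN (log2 0.73 ± 0.72, adjusted p = 0.465). Cd79a, Cd79b and Ms4a1 had log2 changes of 1.55 ± 1.32, 1.29 ± 0.93 and 1.46 ± 1.13, all positive and with adjusted p of 0.385, 0.3 and 0.335 (edgeR).

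In BAT the scaling bears on the size of these changes. TMM scaling put the median log2 change of all genes in control BAT at 0.11, whereas library totals with no scaling factor put it at 0.65, so the CPM values show larger housing differences than the tested changes. Under the library totals Igkc was called as well, with a log2 change of 2.76 (adjusted p = 0.0477, edgeR), and the split of called genes moved from 48.8% higher to 87.2% higher.

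**Figure D4:**
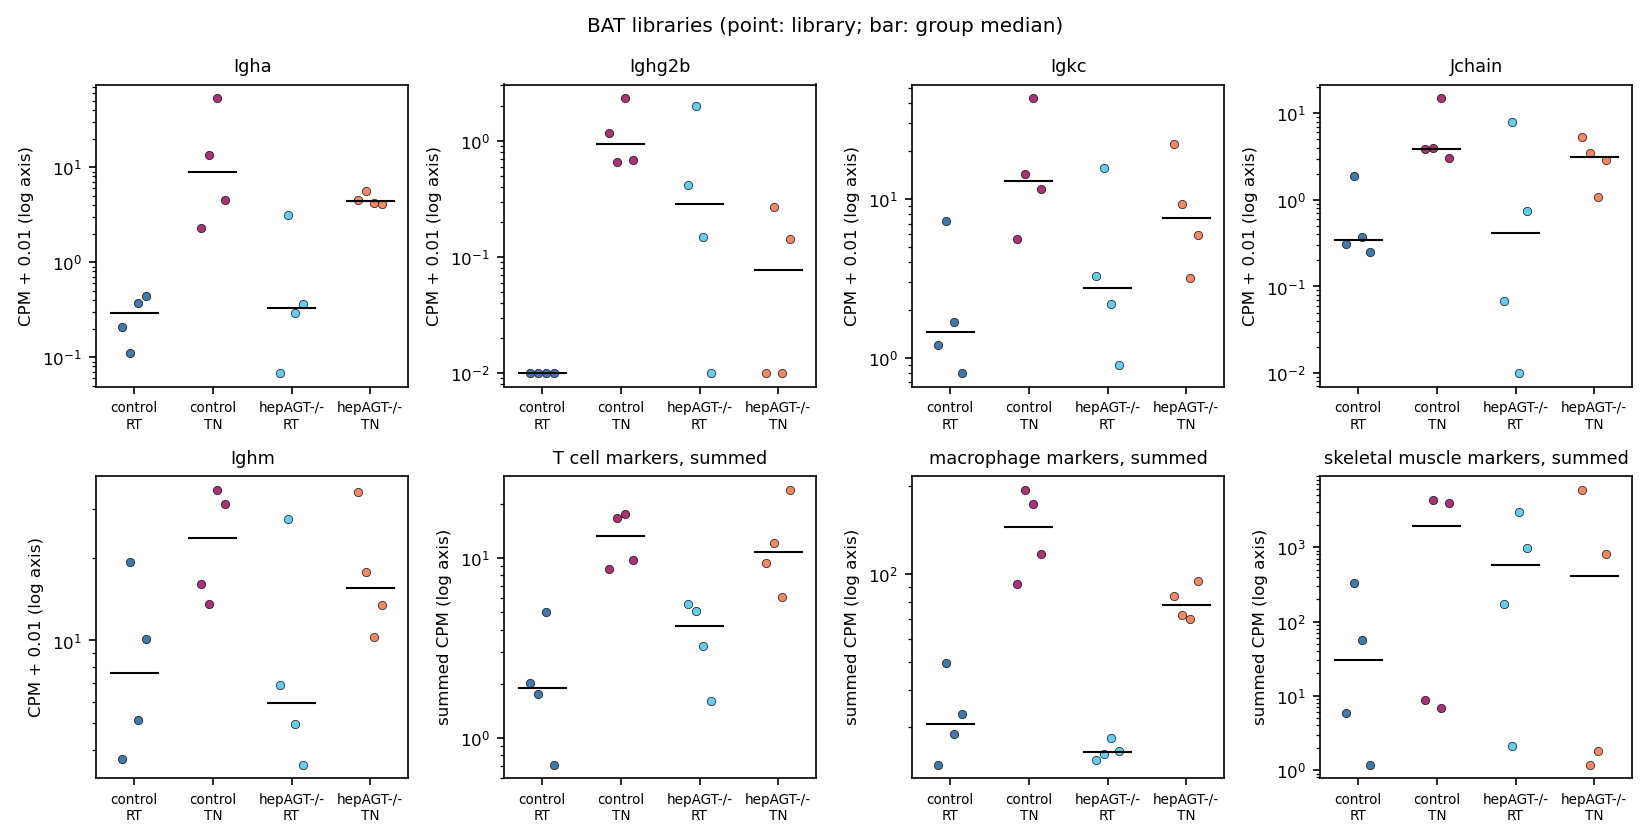
Antibody genes (CPM + 0.01) and summed T cell, macrophage and skeletal muscle markers (CPM) in each BAT library, on log axes, for controls and hepAGT-/- mice at RT and TN, with bars at group medians of 4 libraries. Igha and the T cell and macrophage sums do not overlap between RT and TN in either genotype, and muscle markers span 1.19 to 5923 CPM within the tissue.

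In BAT of hepAGT-/- mice none of the 8 genes was called between TN and RT by edgeR, where 15.2% of all genes were. One gene, Ighg2b, had an unadjusted p under 0.05 and DESeq2 also called none. Ighg2b went the other way from controls, with means of 0.637 CPM at RT and 0.0975 CPM at TN (log2 -3.04 ± 1.34, adjusted p = 0.15, edgeR). Its highest RT level was 2 CPM, in replicate 10. Igha was at 3.15, 0.281, 0.356 and 0.0582 CPM at RT and 4.51, 5.58, 4.21 and 4.13 CPM at TN, again without overlap (log2 1.86 ± 1.02, adjusted p = 0.268). RT replicate 10 held most of the RT signal, also for Ighm (27.6 CPM beside 3.53 to 6.87), Igkc (15.6 beside 0.89 to 3.26) and Jchain (7.87 beside 0 to 0.742). Without that library Igha passed, with a log2 change of 3.94 (adjusted p = 0.0212, edgeR). Igkc and Jchain had log2 changes of 0.49 ± 0.97 and 0.15 ± 1.26 (adjusted p = 0.81 and 0.96), and Ighm 0.43 ± 0.72 (adjusted p = 0.77). The difference between the genotypes in the housing change was not called for any of the 8 genes by edgeR, beside 0% of all genes. For Igha its log2 value was -3.52 (interval of 2 SE to either side -6.52 to -0.52, adjusted p = 0.475, edgeR). Of the 8 genes, 2 had an unadjusted p under 0.05 for this difference, Igha and Ighg2b, and DESeq2 called 1, Ighg2b. In edgeR the Ighg2b value was also negative (adjusted p = 0.383), and it rests on a control RT group with no count.

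Further genes of the B lineage were called in control BAT, at shares that can be read against the 32.5% of all genes. Among the 16 B cell identity genes, 13 were tested and 3 were called, all higher at TN: Blk, a B cell tyrosine kinase with no count in the 4 RT libraries and a mean of 0.371 CPM at TN (adjusted p = 0.029), Cd180 (log2 2.80 ± 0.59, adjusted p = 0.00154) and the adaptor Blnk (1.37 ± 0.49, adjusted p = 0.0392, edgeR). Of 11 plasma cell genes tested, 5 were higher and 2 lower. Prdm1, the plasma cell transcription factor Blimp-1, had a log2 change of 2.08 ± 0.65 (adjusted p = 0.0199), Sdc1, the syndecan CD138, 1.49 ± 0.44 (adjusted p = 0.0151) and Cd38 1.29 ± 0.42 (adjusted p = 0.0285), while Irf4, also a regulator of thermogenic adipocytes, was lower by -0.90 ± 0.30 (adjusted p = 0.0259, edgeR). The fall of Irf4 was lost with library totals, at -0.35, and without RT replicate 15 or TN replicate 1, 7 or 24 (adjusted p of 0.0562, 0.0587, 0.0806 and 0.0511). None of these plasma cell genes is limited to plasma cells. The calls of Blk, Blnk, Prdm1, Sdc1 and Cd38 were each lost without 1 or more single libraries, such as RT replicate 18 (adjusted p of 0.054, 0.0928, 0.0542, 0.0522 and 0.0856). Cxcr4, the receptor that holds plasma cells in their niche and is found on many leukocytes, rose by 2.84 ± 0.50 in controls (adjusted p = 0.00037) and by 1.79 ± 0.48 in hepAGT-/- mice (adjusted p = 0.0157, edgeR), where the call was lost without RT replicate 19 (1.62, adjusted p = 0.0564).

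Macrophage markers were higher at TN in both genotypes, and few T cell markers were called. Of 13 T cell genes tested in control BAT, 3 were called, beside the 32.5% of all genes, all higher at TN: Il7r (log2 3.90 ± 1.00, adjusted p = 0.00636), Trbc1 (3.70 ± 1.04, adjusted p = 0.011) and Tcf7 (2.13 ± 0.74, adjusted p = 0.0335, edgeR). The summed level of 14 T cell markers was 0.711 to 4.99 CPM at RT and 8.71 to 17.6 CPM at TN in controls, and 1.6 to 5.53 and 6.03 to 23.9 CPM in hepAGT-/- mice, where edgeR called 0 of the 13 genes and 3 had an unadjusted p under 0.05. Of 8 macrophage genes, 7 were higher at TN in each genotype, and their sum was 22.3 to 49.6 CPM at RT and 92.7 to 194 CPM at TN in controls. In hepAGT-/- BAT, the chemokine Cxcl12 was lower at TN by -1.08 ± 0.34 (adjusted p = 0.0427), and Sdc1 (1.44 ± 0.44, adjusted p = 0.0328) and Xbp1 (0.85 ± 0.14, adjusted p = 0.000622, edgeR) were higher. The calls of Tcf7, Cxcl12 and Sdc1 were lost without single libraries, with adjusted p up to 0.12 without control TN replicate 7, 0.112 without hepAGT-/- RT replicate 10 and 0.209 without hepAGT-/- TN replicate 2. The part of these cell types in the antibody gene differences was not tested.

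Reads of neighbouring tissue varied within the BAT groups. Skeletal muscle markers summed to 8.68, 4248, 6.77 and 3879 CPM in the control TN libraries listed in the same order as Igha above, so the library with most Igha had the least muscle signal of that group. Red cell markers were at 224 to 744 CPM in control BAT at RT and 149 to 940 CPM at TN. Hepatocyte markers were at 11.9 to 263 CPM at RT and 76.2 to 785 CPM at TN. The part of these tissues was not tested.

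Genotype made no called difference for the 8 genes in BAT. At RT none was called by edgeR or DESeq2, where edgeR called 0.0887% of all genes, and 2 had an unadjusted p under 0.05. At TN none was called by edgeR or DESeq2 either, beside 0% of all genes by edgeR, and 1 had an unadjusted p under 0.05. Leaving out control RT replicate 12 led to 1 call at RT, Ighg2b, in a group with no Ighg2b count.

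In liver, the comparison with a called member was genotype at TN. Ighm was at 9.29, 3.84, 4.41 and 7.32 CPM in controls and at 13.5, 25.6, 24 and 9.47 CPM in hepAGT-/- mice. The groups just failed to overlap, and the log2 difference was 1.44 ± 0.36 (adjusted p = 0.0327, edgeR, over 17594 genes). This 1 of 8 genes was called, higher in hepAGT-/- mice, where 3.18% of all genes were called in either direction, and the median log2 difference of the 8 was 0.77 beside 0.05 over all genes. Leaving out hepAGT-/- replicate 4 or 5, or control replicate 6, 7 or 24, ended the call, with adjusted p of 0.116, 0.0764, 0.102, 0.097 and 0.065, as did a fit of only these 8 libraries (adjusted p = 0.0625).

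The light chain pointed the same way in liver. Igkc was at 8.75, 4.49, 5.18 and 5.1 CPM in controls and 14.4, 17.3, 19.4 and 8.09 CPM in hepAGT-/- mice at TN (log2 1.22 ± 0.36, adjusted p = 0.0685). Igkc was called without control replicate 1 (adjusted p = 0.0436), without hepAGT-/- replicate 22 (0.0453) and by DESeq2 (0.0189). Cd79b was at 0 to 1.22 CPM in controls and 1.71 to 3.09 CPM in hepAGT-/- mice, with no overlap (log2 1.99 ± 0.80, adjusted p = 0.183). Jchain was at 1.74 to 2.23 and 3.06 to 5.6 CPM (log2 0.95 ± 0.46, adjusted p = 0.292), and Igha at 2.8 to 3.52 and 4.04 to 5.41 CPM (log2 0.50 ± 0.52, adjusted p = 0.699, edgeR). Their groups did not overlap either, yet none of the 3 passed the test over all genes. The share of all genes without overlap was not counted, so the lack of overlap does not set these members apart. Ighg2b, Cd79a and Ms4a1 overlapped between the genotypes.

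**Figure D5:**
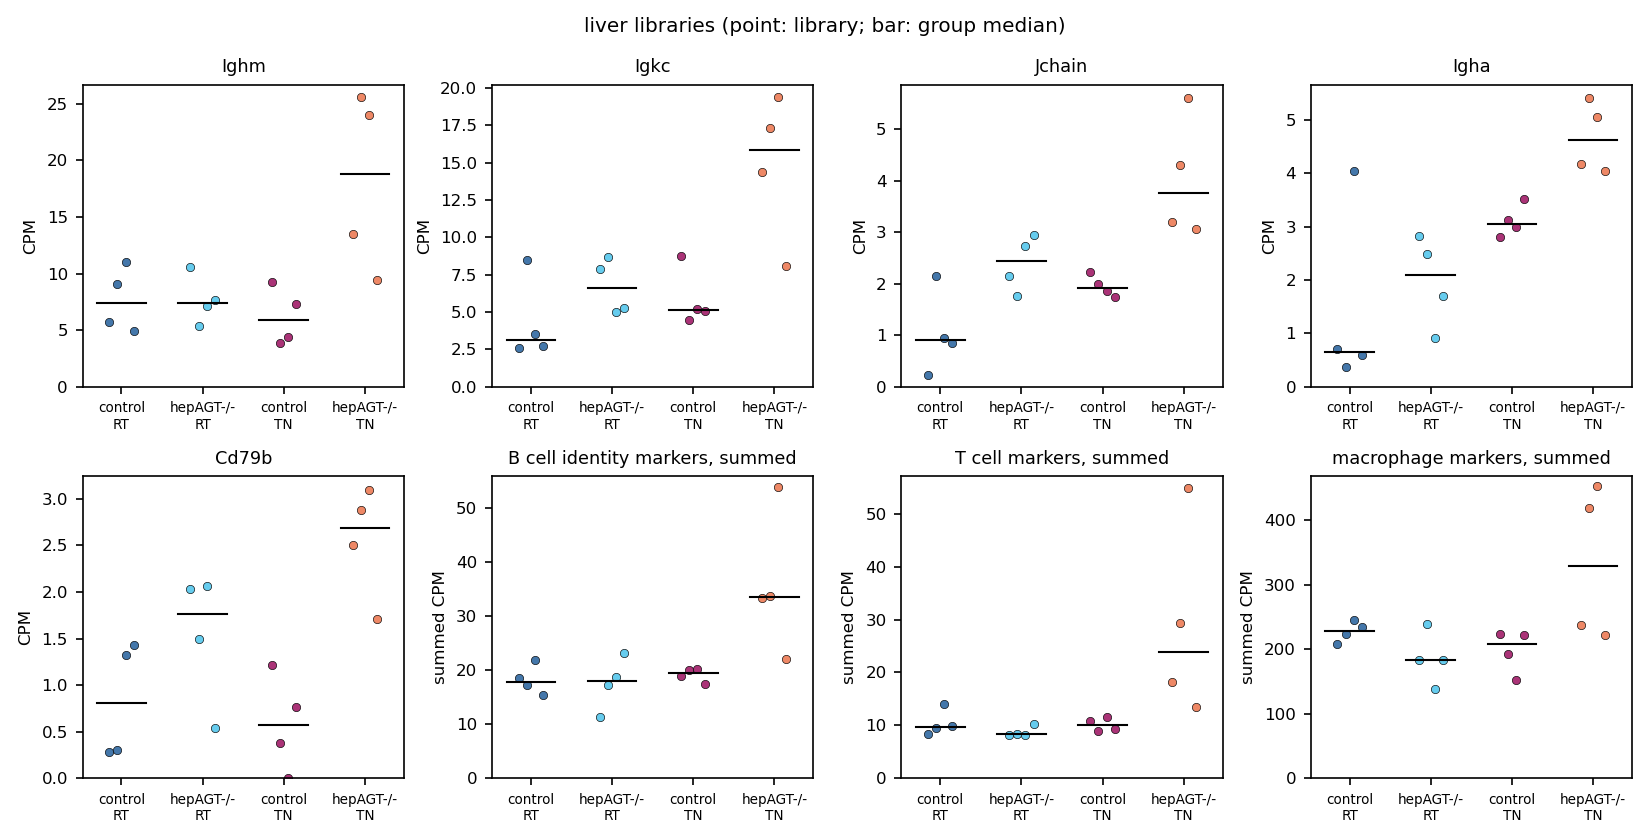
Antibody and receptor genes (CPM) and the summed B cell, T cell and macrophage markers (CPM) in each liver library, for controls and hepAGT-/- mice at RT and TN, with bars at group medians of 4 libraries. The hepAGT-/- TN group has the highest medians for Ighm, Igkc and Cd79b, and their T cell sum spans 13.4 to 54.8 CPM.

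Summed markers of other leukocytes were also highest in hepAGT-/- liver at TN. In hepAGT-/- mice at TN, the summed B cell identity genes were at 33.4, 33.8, 53.8 and 22.1 CPM in replicates 2, 4, 5 and 22, against 17.4 to 20.2 CPM in controls, and the summed T cell markers at 18.2, 29.4, 54.8 and 13.4 CPM against 8.94 to 11.5 CPM. Macrophage markers summed to 222 to 453 CPM against 153 to 224 CPM. Of 16 B cell identity genes, 15 had a positive log2 difference and 1 was called, the lectin Cd72 (1.09 ± 0.30, adjusted p = 0.0459). Of 11 plasma cell genes tested, 2 were called, both encoding endoplasmic reticulum folding factors found in many secretory cells, Fkbp11 (1.35 ± 0.26, adjusted p = 0.00901) and Creld2 (0.86 ± 0.23, adjusted p = 0.0388, edgeR). None of 14 T cell or 8 macrophage genes was called by edgeR; 3 and 2 had an unadjusted p under 0.05. Leaving out single libraries, among them hepAGT-/- replicate 4 or control replicate 6, ended the calls of Cd72 (adjusted p up to 0.14) and Creld2 (up to 0.116). The part of these cells in the Ighm difference was not tested.

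The remaining liver comparisons held no called member by edgeR. Between TN and RT in hepAGT-/- mice, Ighm had a log2 change of 1.16 ± 0.35 (adjusted p = 0.18) and Igkc 1.06 ± 0.36 (adjusted p = 0.246), beside 0.114% of all genes called; 3 members had an unadjusted p under 0.05 and DESeq2 called 1, Ighm. Between TN and RT in controls, 0.0227% of all genes were called, and 1 member had an unadjusted p under 0.05. Between the genotypes at RT, 0.0853% of all genes were called, and 2 members had an unadjusted p under 0.05. The difference in the genotype effect between TN and RT was 1.48 ± 0.50 for Ighm (adjusted p = 0.506), 1 member had an unadjusted p under 0.05, and 0% of all genes were called. DESeq2 called no member in these last 3 comparisons. The larger difference at TN than at RT was therefore not called as a difference of its own.

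In eWAT neither genotype nor housing moved any of the 8 genes past the threshold, by edgeR or DESeq2. The shares of all genes called were 4.34% between genotypes at RT, 0.586% between genotypes at TN, 0% between housings in controls, 1.74% between housings in hepAGT-/- mice and 0% for the interaction. In the first 3 of these and in the interaction 1 member had an unadjusted p under 0.05, and in the fourth none had. Ighm was at 402, 429, 401 and 419 CPM in controls at RT, 434, 449, 484 and 353 CPM in hepAGT-/- mice at RT, 426, 391, 626 and 536 CPM in controls at TN and 431, 653, 209 and 525 CPM in hepAGT-/- mice at TN. The 4 control libraries at RT lay close together, whereas the hepAGT-/- libraries at TN held both the highest and the lowest value of the tissue.

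Igha was the member whose eWAT groups separated. In controls it was at 8.51, 5.07, 4.79 and 5.49 CPM at RT and 22.6, 32.3, 9.97 and 20 CPM at TN, with no overlap (log2 1.81 ± 0.63, adjusted p = 0.525). At TN, hepAGT-/- mice had 9.84, 6.2, 3.65 and 8 CPM, all below the controls (log2 -1.67 ± 0.63, adjusted p = 0.251, edgeR). Both comparisons use the 4 control TN libraries. Neither passed the test over all genes, and the share of all genes without overlap was not counted. Replicate number 7, control at TN, carried the highest Igha in BAT (53.2 CPM) and in eWAT (32.3 CPM) and a middling value in liver (2.99 CPM); the labels do not say that a number marks 1 animal.

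In control eWAT at RT, 1 library stood apart for Igkc and Jchain. In that group Igkc was at 159 CPM in replicate 12 and 19.6, 9.91 and 25.4 CPM in the others, and Jchain at 56.8 CPM and 6.95, 4.79 and 8.09 CPM. The hepAGT-/- libraries at RT had 11.8 to 54.9 CPM of Igkc and 3.75 to 21.2 CPM of Jchain. The log2 differences between genotypes at RT were -0.69 ± 0.89 and -0.62 ± 0.83 (adjusted p = 0.772 and 0.787, edgeR), and without control replicate 12 they turned to 0.83 and 0.90. Ms4a1 was at 7.86, 0.209, 0.17 and 2.04 CPM in controls at TN and 0.0635 to 0.916 CPM in hepAGT-/- mice (log2 -2.13 ± 1.19, adjusted p = 0.456).

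A lymph node left in a fat piece is a possible source of B cell reads, and its markers were looked at beside the members. Glycam1, a mucin of the high endothelial venules through which lymphocytes enter lymph nodes, was at 0 in all liver and BAT libraries and in 15 of 16 eWAT libraries, with a highest level of 0.109 CPM. Madcam1, an addressin of such venules, was at 0 in 14 of 16 BAT and 14 of 16 eWAT libraries, with highest levels of 0.22 and 0.276 CPM. Chst4, a sulfotransferase of the same venules, was instead detected in 14 of 16 eWAT libraries, with a median of 1.28 and a highest level of 4.03 CPM, while it was at 0 in all 16 BAT and in 11 of 16 liver libraries. It was called higher in eWAT than in BAT (adjusted p = 8.18e-08) and than in liver (adjusted p = 5.93e-06, edgeR). Ccl21a, a chemokine of lymph node stroma and of lymphatic vessels, was at 0 to 76.7 CPM in eWAT (median 24.6) and 0 to 9.02 CPM in BAT, and the T zone chemokine Ccl19 at no more than 2.52 CPM. In hepAGT-/- eWAT at TN, Ccl21a was at 7.49, 29.5, 76.7 and 74.2 CPM in replicates 5, 3, 21 and 4, where Igkc was at 11.8, 38.8, 96.9 and 114 CPM and Ighm at 209, 431, 525 and 653 CPM. In control eWAT at TN, replicate 8 had the least of Ccl21a and Igkc (0 and 17.8 CPM) and replicate 23 the most (43.2 and 72.2 CPM). Replicate 8 nevertheless had the highest Ighm of that group, 626 CPM. In hepAGT-/- eWAT at RT, Ccl21a and Igkc ran in reverse order. Ccl21a was at 43.4, 38.2, 32.8 and 27.6 CPM in replicates 10, 9, 19 and 16, and Igkc at 11.8, 27.2, 39.6 and 54.9 CPM. In control eWAT at RT all 4 libraries had 1.1 to 18.4 CPM of Ccl21a, with 7.61 CPM in replicate 12, which had most Igkc. The part of lymph node tissue in the members' levels was not tested. Summed over 7 measured genes, lymph node and lymphatic markers were at 23.1 to 54.9 CPM in control eWAT at RT, 58 to 71.1 in hepAGT-/- eWAT at RT, 44.7 to 70.6 in controls at TN and 59.8 to 140 in hepAGT-/- mice at TN. In BAT they were at 2.45 to 4.81 CPM at RT and 6.87 to 21 CPM at TN in controls, and BAT replicate 7 at TN, with most Igha, had the lowest sum of its group, 6.87. T cells, the most numerous cells of a node, had summed markers of 11.7 to 48.3 CPM in eWAT. Among the lymphatic and T cell genes, 2 were called within eWAT: Lyve1, a marker of lymphatic endothelium and of some macrophages, was higher at TN in hepAGT-/- mice (log2 0.93 ± 0.19, adjusted p = 0.0266), and Il7r was lower in hepAGT-/- mice at TN (-2.02 ± 0.41, adjusted p = 0.0401, edgeR). Both calls were lost when single libraries were left out, with adjusted p up to 0.0878 without hepAGT-/- replicate 4 for Lyve1 and 0.171 without hepAGT-/- replicate 5 for Il7r.

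The genes whose levels ran most nearly with the members were few of the B lineage. In eWAT the gene with the highest Pearson r with Ms4a1 over 16 libraries was Iglc3, the lambda light chain constant gene (r = 0.84), followed by Zmynd19 (0.84). Jchain ran with Ccnd1 (0.81), Iglc3 (0.76) and the IgG3 gene Ighg3 (0.76). In BAT, Jchain was nearest to Oasl1 (0.85) and Ptpn7 (0.83), and in liver Jchain was nearest to Cyp1b1 (0.87) and Ms4a1 to As3mt (0.85). With Ighm, a likeness looked at after its levels were seen, Srgn (0.89) and the T cell receptor gene Trbc2 (0.87) were nearest in liver, and Kcne4 (0.80) in eWAT, with Ighd among the 5 nearest (0.70). All these values are descriptions over 16 libraries of 1 tissue.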

How the data were processed

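The deposited files hold whole-number read counts per Ensembl gene, one file per library, made by the authors from paired-end Illumina reads. Per the submitters' processing notes, the tools were fastp, STAR 2.6.1d and featureCounts 1.5.0-p3, with builds GRCm38 and mm10. The strand setting, the annotation release and the handling of multi-mapping reads are not given in the sources used here. Of the 56748 identifiers, 52073 (91.8%) matched a symbol. Printed CPM are counts in each megacount of the library total, and levels per kilobase use the exon length of GENCODE M21.

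Tests were edgeR 4.0.16 quasi-likelihood fits in R 4.3.3, with TMM scaling and filterByExpr at a minimum count of 10. Each tissue had 1 fit of its 16 libraries, and the tissues were compared in 1 fit of all 48. The Benjamini-Hochberg adjustment covered every gene tested in a fit, with a threshold of 0.05. The housing comparison in control BAT was checked on simulated counts, with known changes put only into genes with higher counts. That check does not cover the other fits or members with few counts. The labels call the replicates biological and do not say whether a number marks 1 animal across tissues. Alternatives were RLE scaling, other filters, DESeq2 1.42.0, fits of only the 8 libraries compared, each library left out, a replicate block across tissues and, chosen after seeing the data, library totals with no scaling factor.

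The genes and lists were chosen with earlier results of these data known. Members were always named, and genes of other lists only where called, up to 4 per list and comparison. Likeness was the Pearson r of log2(CPM + 0.5) with Ms4a1 and Jchain, where CPM were scaled by TMM, unlike the printed CPM. The correlations between members used the same scaled values. Likeness to Ighm and the segment pair were added after values were seen. Where a group had no count, the floor was 3 counts per library. Floors cover counting error only. Intervals rest on the SE of the edgeR fit, which also holds the spread between libraries.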

Additional observations from a re-analysis of the deposited data

Results flagged for a closer look

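In 19 of 104 groups of 4 libraries, 1 library stood apart from the other 3 by Dixon's test. Chance flags about 1 in 20 groups where values are independent and normally distributed. CPM near 0 are skewed, and some libraries were flagged for several genes that move together. The number of flags can therefore not be set against that rate. In eWAT, control replicate 12 at RT stood apart for Ighg2b (31.9 CPM), Igkc (159), Jchain (56.8) and Ms4a1 (3.9), and hepAGT-/- replicate 10 at RT for Ighg2b (0.258, from 8 counts). In BAT, hepAGT-/- replicate 10 at RT stood apart for Ighm (27.6 CPM), Igha (3.15), Igkc (15.6) and Jchain (7.87), control replicate 15 at RT for Igkc (7.21) and Jchain (1.88), control replicate 7 at TN for Jchain (14.9) and hepAGT-/- replicate 2 at TN for Ms4a1 (1.41). In liver, control replicate 15 at RT stood apart for Igha (4.04 CPM), control replicate 12 at RT for Igkc (8.47) and control replicate 1 at TN for Igkc (8.75). The flags for Mzb1 rest on 2 to 4 counts: 0.0635 CPM in liver hepAGT-/- replicate 16 at RT, 0.0702 in BAT hepAGT-/- replicate 14 at RT and 0.12 in BAT hepAGT-/- replicate 2 at TN.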

How the results depend on the processing

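No member was called in any eWAT comparison of genotype or housing under any alternative. In liver between genotypes at TN, 1 member was called; DESeq2 and library totals with no scaling factor each called 2, and leaving out 1 library gave 0 to 2. The other liver comparisons called 0; DESeq2 called 1 for housing in hepAGT-/- mice, and leaving out 1 library gave 0 to 1 for housing in controls (1, Igha, without control RT replicate 15). In BAT, the 2 calls for housing in controls became 1, Igha, when genes had to reach 1 CPM in 4 libraries. Ighg2b did not pass that filter and was not tested under it. DESeq2 called 1 for the interaction, and leaving out 1 library gave 0 to 1 for genotype at RT (Ighg2b, without control RT replicate 12) and 0 to 1 for housing in hepAGT-/- mice (Igha, without RT replicate 10). Between BAT and liver, the 4 calls became 2 with no filter, 2 with library totals, 1 with the replicate block and 1 to 4 with 1 library left out. Single libraries whose loss left 2 calls were BAT hepAGT-/- 14 and 19 (RT) and 3 and 5 (TN), BAT control 12 and 15 (RT) and 1 (TN), liver hepAGT-/- 16 (RT) and 2 and 4 (TN), and liver control 11, 15 and 18 (RT) and 7 and 24 (TN). The causes were not tested.

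The following reversed, none of them called. For housing in hepAGT-/- BAT without TN replicate 2, Igkc was -0.23, Ighm -0.03 and Jchain -0.21 on the log2 scale, and Jchain was -0.26, -0.14 and -0.26 without RT replicates 14, 19 and 9. Without 1 library, these changes ranged up to 1.88, 1.51 and 3.15, each without RT replicate 10. For genotype in eWAT at RT without control replicate 12, Igkc was 0.83 and Jchain 0.90, beside lowest values of -1.02 and -1.05 without another library. For eWAT against liver, Ighg2b was -0.60 with the replicate block and -0.94 to 0.24 with 1 library left out (-0.94, -0.84 and -0.09 without eWAT control RT 12, hepAGT-/- RT 10 and hepAGT-/- TN 4), and Cd79a was 0.29 with library totals.

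Whether a replicate number marks the same animal in each tissue was not settled. Same-numbered libraries of 2 tissues had median correlations of 0.0113 (liver and BAT), 0.0133 (liver and eWAT) and -0.0518 (BAT and eWAT). Libraries with other numbers had medians of -0.00537, -0.00124 and -0.00603. Such values cannot decide it, because different tissues of the same animal need not vary together. Library totals moved the median of all genes to 0.57 for eWAT against liver, 0.42 for eWAT against BAT and 0.21 for BAT against liver, and to 0.42 for housing in hepAGT-/- BAT. The share of calls that were higher moved from 51.9% to 69.3% and from 51.6% to 73.5% in the first 2, from 43.8% to 86.1% in the last, and from 42.0% to 70.3% for genotype in liver at TN. Few counts limit Mzb1, Cd79a and Ms4a1.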
